A study of Nicotiana tabacum with 9 samples.

Results

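Genes that build and remodel the cellulose and xyloglucan network of the cell wall were followed in young leaves of tobacco. They were taken from a table of 69500 genes as those whose description names xyloglucan, cellulose synthase or COBRA and whose value reached 1 in at least 3 of 9 libraries. Descriptions matched for 152 genes, and 70 of these passed the filter on low values. The 70 are 31 xyloglucan endotransglucosylases, 31 genes with a cellulose synthase domain and 8 COBRA proteins. Of the 82 that did not pass, 31 were listed at 0 in all 9 libraries, and all 6 genes described as xyloglucan fucosyltransferases were among the 82. The filter lay within a run of similar values. Just outside it by their third-highest library were Nitab4.5_0022990g0010 at 0.95, Nitab4.5_0000021g0570 at 0.92 and Nitab4.5_0000446g0010 at 0.74, and just inside were Nitab4.5_0002389g0020 at 1.01, Nitab4.5_0008526g0020 at 1.04 and Nitab4.5_0000437g0170 at 1.11. The table names no gene beyond its identifier and protein domains, so members are called by identifier.

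Xyloglucan is a branched glucan that coats and ties together cellulose microfibrils in the walls of growing leaf cells. Xyloglucan endotransglucosylase/hydrolases, a group of family 16 glycoside hydrolases, cut xyloglucan chains in the wall and join the cut end to another chain or to water, which changes how the network holds. Cellulose is spun at the plasma membrane by complexes of CESA proteins, which carry a zinc finger at their N-terminal end. A gene model with the cellulose synthase domain but no zinc finger may be a cellulose synthase-like gene, a class that makes other wall glucans and mannans, or an incomplete model. COBRA proteins are held at the cell surface by a lipid anchor and, in Arabidopsis, are needed for oriented deposition of cellulose.

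The study asks how the co-activator NtAN3 acts on leaf size. Young leaves were taken in the squaring period, the stage of flower budding, from NC82, M21 and G27 plants, and each genotype gave 3 libraries. NC82, a tobacco cultivar, was taken as the reference. M21 and G27 are given by name alone. The labels do not say which change of NtAN3 each carries, by which transgene or promoter if any, or whether each replicate was a plant of its own. The p-values therefore cover the spread between these libraries only, which may be technical. The SS18 family holds AN3. Nitab4.5_0007901g0050, a gene described as SS18 family, had values of 0.34, 0.25 and 0.25 in NC82 and 5, 5.8 and 4.32 in M21. In G27 it had 760.1, 604.42 and 620.86. Whether it is NtAN3 is not given, and any other gene of the family is left out here. Leaf markers were high throughout. The 90 genes for chlorophyll a/b binding proteins and the Rubisco small subunit summed to between 71585 and 83600 of the 771390 to 790816 that all genes of a library summed to.

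Values are the authors' normalized expression, whose unit the table does not name, and the read depth behind them is unknown. Levels of different genes are set side by side on this scale, taken to be per length. A change is the difference in log2(value + 1) between groups, which understates the ratio for genes at low levels, and a gene was called at a limma adjusted p under 0.05 over all 33188 genes tested. On the third principal component (11.6% of the variance), replicate 1 of NC82, replicate 3 of M21 and replicate 1 of G27 had the highest score of their genotype. The scores were 22.87, -5.39 and -14.15 in NC82, -2.06, -17.26 and 16.02 in M21, and 21.17, -18.89 and -2.29 in G27. In M21 and G27, replicate 2 lay far out on the other side. Counts are also given without those 3 highest libraries, called below the 3 libraries that stood apart, though they need not be outliers. Tobacco carries a pair of ancestral genomes with similar gene copies, and how the authors' counting divided reads between close copies is not known. In whole leaves, fewer cells of a type and less RNA per cell cannot be told apart.

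The summed level of each class was asked first. The 31 xyloglucan endotransglucosylases summed to 1365, 1282 and 1265 in the NC82 libraries, to 1244, 1280 and 1257 in M21, and to 1322, 1288 and 1195 in G27. These groups overlapped, with means of 1304 ± 53.3, 1260.3 ± 18 and 1268 ± 65.8 (SD, n = 3). The 20 cellulose synthases with a zinc finger overlapped too, at 291.03 ± 9.95, 297.3 ± 20.5 and 319.9 ± 24.7 in NC82, M21 and G27. The 11 other cellulose synthase genes summed to 148.2, 151.9 and 152.3 in NC82, to 204.5, 192.1 and 210.9 in M21, and to 179.9, 177.9 and 176.7 in G27. Here the 3 groups did not overlap, and M21 was the highest and NC82 the lowest. The 8 COBRA genes summed to 93.0 ± 6.21 in NC82, 105.1 ± 4.99 in M21 and 111.8 ± 7.99 in G27, and every library of both lines lay above the NC82 libraries. These sums are a description, and no test was made on them.

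**Figure D1:**
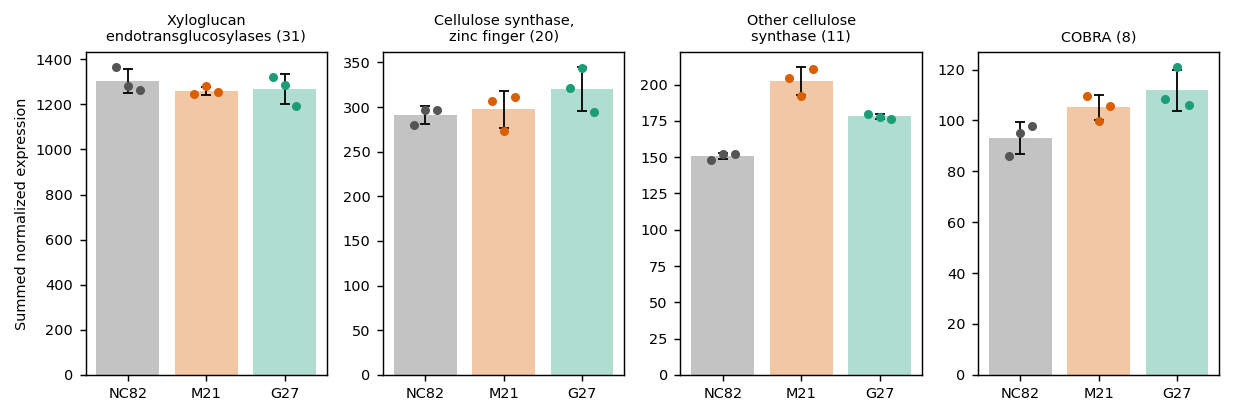
Summed normalized expression of each class per genotype. Bars are means, error bars SD and points the 3 libraries, and the number of genes summed is in each title. The other cellulose synthase genes are the class in which the 3 genotypes do not overlap, with M21 near 202.5 and NC82 near 150.8.

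Beneath the similar sums, single xyloglucan endotransglucosylases rose and fell by large amounts. Their means over the 9 libraries ran from 0.734 to 216.06. The 5 highest held 71.96% of the class sum in NC82, 67.9% in M21 and 67.3% in G27. In M21 against NC82, 8 of the 31 rose and 9 fell, so 54.8% were called, where 24.3% of all tested genes were called (13.0% higher and 11.3% lower). In G27 against NC82, 6 rose and 4 fell, or 32.3%, where 13.9% of all genes were called (7.87% higher and 6.05% lower). In M21 against G27, 9 were higher in M21 and 10 lower, or 61.3%, where 11.9% of all genes were called (5.47% higher and 6.40% lower). The median log2 change of the class was -0.17, 0.05 and -0.08 in these comparisons, beside 0.03, 0.05 and -0.01 over all genes. Without the 3 libraries that stood apart, 7 rose and 8 fell in M21 (19.7% of all genes were called), 6 rose and 4 fell in G27 (11.0%), and 9 were higher and 9 lower in M21 against G27 (8.46%). With a filter of 6 libraries, which leaves out Nitab4.5_0000833g0010 and Nitab4.5_0002347g0150, 29 were tested and 7 rose and 9 fell in M21, 6 rose and 4 fell in G27, and 8 were higher and 9 lower in M21 against G27. The 2 comparisons with NC82 share the NC82 libraries. Ranges did not overlap for 20 of the 31 genes in M21 against NC82, for 13 in G27 against NC82 and for 23 in M21 against G27, where 40.3%, 30.6% and 28.6% of all genes did not overlap.

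**Figure D2:**
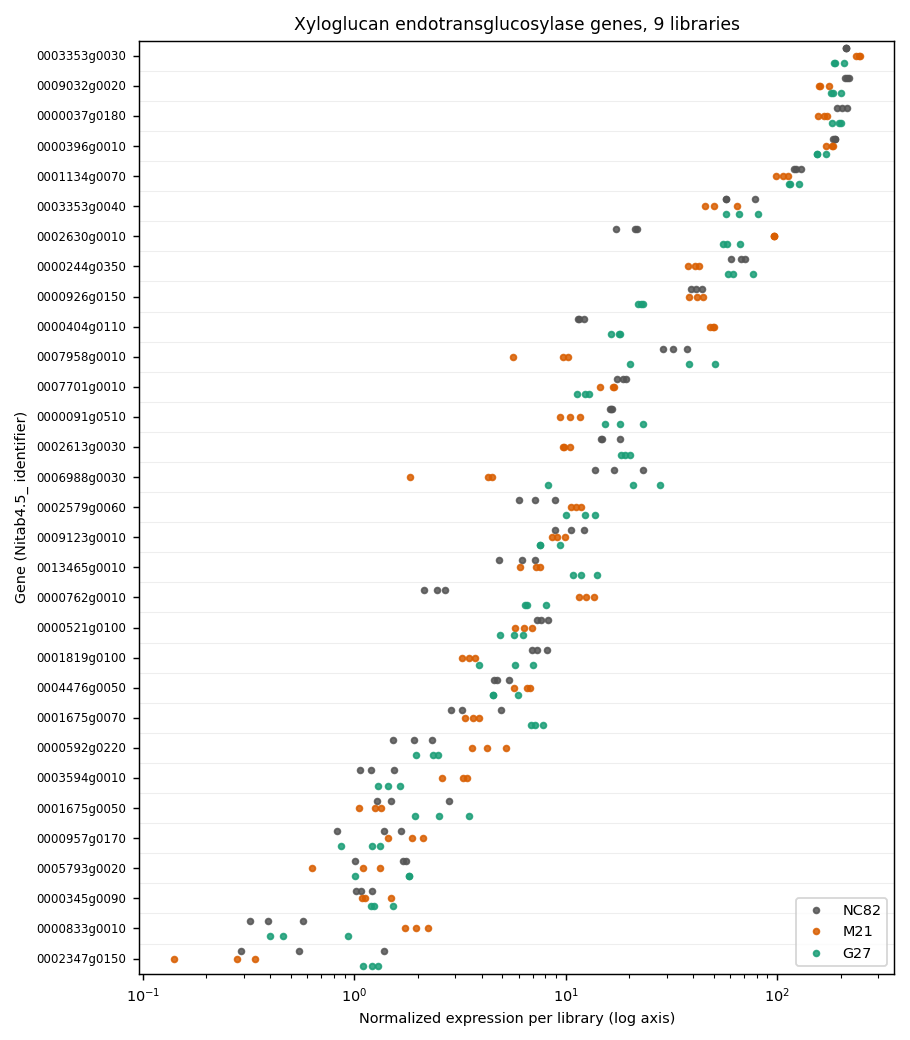
Normalized expression of the 31 xyloglucan endotransglucosylase genes, 1 row per gene ordered by mean, with each point a library and a log axis. The 5 highest genes keep their libraries close together, while Nitab4.5_0002630g0010, Nitab4.5_0000762g0010 and Nitab4.5_0000404g0110 show M21 to the right of G27 and G27 to the right of NC82.

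The 5 most abundant members moved by small amounts. Nitab4.5_0003353g0030, the highest over all libraries, had values of 212.14, 211.58 and 212.09 in NC82, 235.86, 246.63 and 243.89 in M21, and 208.03, 186.46 and 187.82 in G27. It rose in M21 by a log2 difference of 0.19 (SE 0.061, limma adjusted p = 0.043), and its value in G27 was -0.13 against NC82 (limma adjusted p = 0.22). M21 and G27 lay on opposite sides of NC82 with no overlap, and M21 was higher than G27 by 0.32 (limma adjusted p = 0.0074). Nitab4.5_0009032g0020, first in NC82 by level, stood at 218.56, 213.25 and 208.15 there, at 160.01, 174.94 and 158.4 in M21, and at 179.38, 200.75 and 183.33 in G27. It fell in M21 by 0.37 on the log2 scale (limma adjusted p = 0.0021) and ranked the fourth in M21. Nitab4.5_0000037g0180 stood at 214.51, 202.36 and 191.12 in NC82, 166.91, 171.69 and 155.41 in M21, and 182.06, 201.09 and 196.46 in G27. All its M21 libraries lay below the others, and it fell in M21 against NC82 (log2 change -0.30, limma adjusted p = 0.010). M21 was not called against G27 (limma adjusted p = 0.059). Nitab4.5_0001134g0070 stood at 130.01, 122.95 and 120.66 in NC82, 106.52, 112.92 and 98.47 in M21, and 114.75, 127.23 and 114.12 in G27. It fell in M21 too (log2 change -0.23, limma adjusted p = 0.039), and none of these 3 was called in G27 against NC82. Nitab4.5_0000396g0010 stood at 188.32, 186.76 and 182.78 in NC82, 170.22, 180.74 and 184.36 in M21, and 170.51, 154.46 and 154.33 in G27. It fell in G27 (log2 change -0.22, limma adjusted p = 0.042), and its M21 values overlapped those of NC82. Across the 9 libraries Nitab4.5_0001134g0070 followed Nitab4.5_0000037g0180 with a Pearson r of 0.94 and Nitab4.5_0009032g0020 with 0.93 on the log2 scale.

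Of these small changes, 3 calls lay near the threshold (limma adjusted p = 0.039 to 0.043) and were lost in most fits leaving out 1 library. The M21 call of Nitab4.5_0003353g0030 was lost without any 1 of the NC82 or M21 libraries or G27 replicate 3 (limma adjusted p = 0.061 to 0.12), with median-ratio scaling (0.15) and without the 3 libraries that stood apart (0.060). That of Nitab4.5_0001134g0070 was lost without any 1 NC82 library, M21 replicate 1, M21 replicate 3 or G27 replicate 3 (limma adjusted p = 0.054 to 0.14), with median-ratio scaling (0.051) and without the 3 libraries (0.21). The G27 call of Nitab4.5_0000396g0010 was lost without any 1 NC82 library, M21 replicate 1, M21 replicate 2, G27 replicate 2 or G27 replicate 3 (limma adjusted p = 0.053 to 0.14).

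The largest rises were in members that were at middle or low levels in NC82. Nitab4.5_0002630g0010 had values of 17.28, 21.35 and 21.73 in NC82, 96.82, 96.15 and 96.36 in M21, and 55.55, 67.06 and 57.71 in G27. The 3 genotypes did not overlap, and the M21 mean was 4.79 times and the G27 mean 2.99 times that of NC82. Its log2 change was 2.21 in M21 (SE 0.096, limma adjusted p = 4.1e-07) and 1.53 in G27 (limma adjusted p = 3.5e-06), and M21 was higher than G27 by 0.68 (limma adjusted p = 0.0016). It was the tenth gene of the class by level in NC82 and the sixth in M21. Nitab4.5_0000762g0010 showed the same order at a lower level, with 2.7, 2.46 and 2.13 in NC82, 12.52, 11.56 and 13.63 in M21, and 6.4, 8.03 and 6.53 in G27. Its log2 change was 1.98 in M21 (limma adjusted p = 9.5e-07) and 1.22 in G27 (limma adjusted p = 2.3e-05). Over the 9 libraries the log2 values of this pair had a Pearson r of 0.98, and of 0.09 once each genotype's mean was taken out, and the pair was not alike within genotypes.

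Nitab4.5_0000404g0110 rose mainly in M21. It stood at 11.49, 12.23 and 11.61 in NC82, 49.5, 50.38 and 48.38 in M21, and 16.29, 17.98 and 17.91 in G27. Each genotype formed a narrow band apart from the others, and the M21 mean was 4.20 times and the G27 mean 1.48 times that of NC82. M21 was higher than G27 by a log2 difference of 1.46 (SE 0.067, limma adjusted p = 1.5e-06). Nitab4.5_0000833g0010 was near the floor in NC82 at 0.57, 0.39 and 0.32 and in G27 at 0.46, 0.93 and 0.4, and stood at 1.95, 1.73 and 2.23 in M21. All 3 M21 libraries lay above the others, with a log2 change of 1.06 against NC82 (limma adjusted p = 0.00041) and 0.91 against G27 (limma adjusted p = 0.0029). It reached 1 in the M21 libraries alone, so it passed the filter through the group where it is high and had to differ, and it counts as no support. Nitab4.5_0000592g0220 rose from 1.93 ± 0.41 to 4.36 ± 0.818 in M21 and Nitab4.5_0003594g0010 from 1.27 ± 0.243 to 3.09 ± 0.422. Both were higher in M21 than in G27, where they stood at 2.27 ± 0.279 and 1.46 ± 0.171 and were not called against NC82. A last riser, Nitab4.5_0002579g0060, went from 7.34 ± 1.43 in NC82 to 11.2 ± 0.632 in M21 and 12 ± 1.88 in G27, with limma adjusted p of 0.011 and 0.0075, and its values in the lines overlapped.

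**Figure D3:**
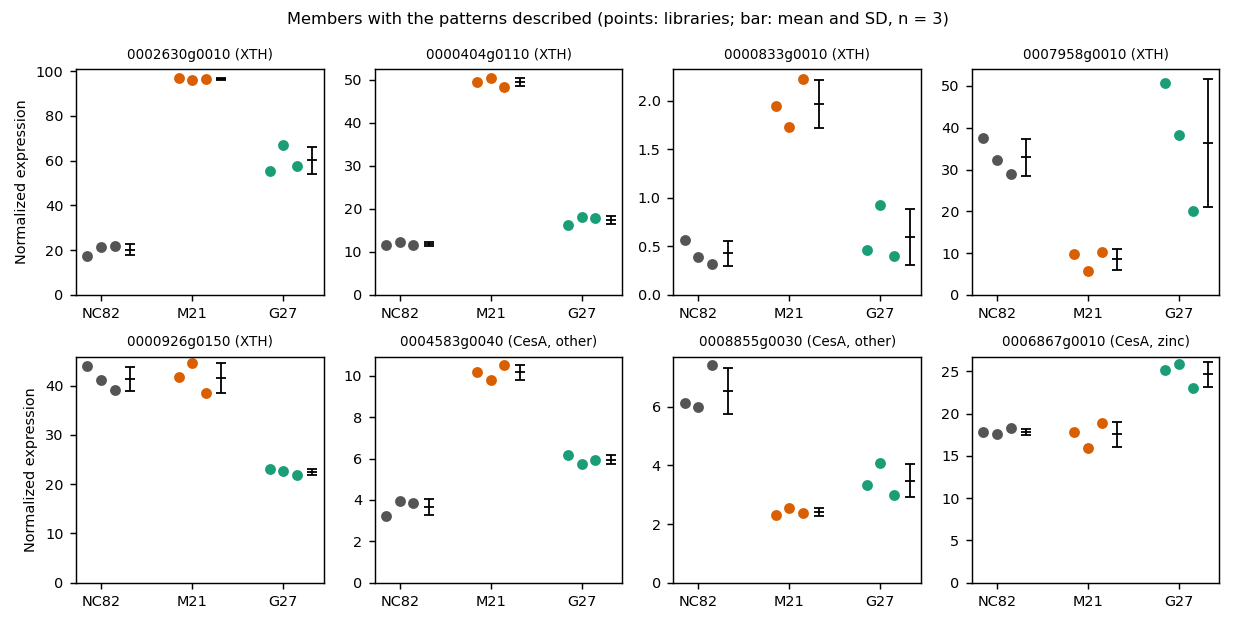
Normalized expression of 8 members in the 3 genotypes. Each point is a library, drawn in order of replicate number, which carries no order in time, and the bar beside them is the mean with SD (n = 3). Nitab4.5_0002630g0010 steps up from NC82 to G27 to M21, Nitab4.5_0007958g0010 is low in M21 and spread from 20.08 to 50.64 in G27, and Nitab4.5_0000926g0150 is low in G27.

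The members that fell most in M21 were a matched pair. Nitab4.5_0007958g0010 stood at 37.64, 32.18 and 28.83 in NC82, 9.76, 5.64 and 10.2 in M21, and 50.64, 38.22 and 20.08 in G27. The NC82 mean was 3.85 times that of M21, and no M21 library reached the lowest of the others. It fell in M21 by 1.86 on the log2 scale (SE 0.29, limma adjusted p = 0.00093), and M21 against G27 was -1.91 on that scale (limma adjusted p = 0.0022). Nitab4.5_0006988g0030 followed it library by library, at 23.26, 16.86 and 13.76 in NC82, 4.31, 1.83 and 4.47 in M21, and 27.98, 20.89 and 8.25 in G27. Its log2 change was -2.09 in M21 (SE 0.38, limma adjusted p = 0.0025) and -2.05 in M21 against G27 (limma adjusted p = 0.0065). The log2 values of the pair had a Pearson r of 0.995 over the 9 libraries and of 0.993 with each genotype's mean taken out. Both spread widely among G27 libraries, and neither was called in G27 against NC82 (limma adjusted p = 0.94 and 0.96). The member next most like Nitab4.5_0007958g0010 was Nitab4.5_0000244g0350, with a Pearson r of 0.97.

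Another 4 members fell in M21 by less. Nitab4.5_0000244g0350 stood at 70.43, 60.35 and 67.76 in NC82, 42.6, 37.99 and 40.78 in M21, and 76.79, 61.92 and 58.39 in G27. M21 lay below both other genotypes, which overlapped, with a log2 change of -0.69 against NC82 (SE 0.1, limma adjusted p = 0.00068). Nitab4.5_0000091g0510 went from 16.4 ± 0.1 to 10.5 ± 1.12, with 18.9 ± 4 in G27, and Nitab4.5_0001819g0100 from 7.48 ± 0.622 to 3.48 ± 0.245, with 5.55 ± 1.57 in G27. Both passed the test in M21 (limma adjusted p = 0.0059 and 0.0013). Nitab4.5_0002613g0030 had values of 18.03, 14.9 and 14.72 in NC82, 9.66, 10.46 and 9.78 in M21, and 20.23, 18.98 and 18.32 in G27. Its groups formed 3 separate bands with NC82 in the middle. It fell in M21 (log2 change -0.62, limma adjusted p = 0.00049), had 0.26 in G27 (limma adjusted p = 0.074), and was lower in M21 than in G27 by a log2 difference of -0.88 (limma adjusted p = 0.00025). All 4 were also called lower in M21 than in G27, that of Nitab4.5_0001819g0100 at a limma adjusted p of 0.049981 that 8 of the 9 fits leaving out 1 library lost (0.055 to 0.14), the fit without G27 replicate 2 being the exception.

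Against NC82, 4 members fell in G27 and were not called in M21, one of them the abundant Nitab4.5_0000396g0010 described above, and 2 rose. Nitab4.5_0000926g0150 stood at 43.96, 41.12 and 39.14 in NC82, 41.78, 44.49 and 38.48 in M21, and 23.08, 22.63 and 21.89 in G27. NC82 and M21 covered the same range and G27 lay well below it, at a log2 change of -0.85 against NC82 (SE 0.074, limma adjusted p = 2.7e-05) and with M21 higher than G27 by 0.85 (limma adjusted p = 0.00012). Nitab4.5_0007701g0010 stood at 19.27, 17.49 and 18.73 in NC82, 16.92, 16.67 and 14.57 in M21, and 11.34, 12.88 and 12.32 in G27. G27 lay below both, and M21 below NC82, with a log2 change in G27 of -0.57 against NC82 (limma adjusted p = 0.00078). Nitab4.5_0000521g0100 stood at 8.21, 7.68 and 7.34 in NC82, 5.73, 6.38 and 6.93 in M21, and 6.26, 5.72 and 4.9 in G27. It fell in G27 (log2 change -0.40, limma adjusted p = 0.018). M21 also lay below NC82 with no overlap, its log2 change was -0.25 (limma adjusted p = 0.086), and M21 was not called against G27 (0.38). The difference of Nitab4.5_0007701g0010 between M21 and G27 (limma adjusted p = 0.014) was lost without M21 replicate 1 (0.068) or G27 replicate 1 (0.0502). The call of Nitab4.5_0000521g0100 was lost without NC82 replicate 1, NC82 replicate 2 or G27 replicate 3 (limma adjusted p = 0.057 to 0.068). In the other direction, Nitab4.5_0013465g0010 had 6.23, 4.83 and 7.13 in NC82, 6.06, 7.59 and 7.22 in M21, and 14.07, 11.77 and 10.83 in G27. Every G27 library lay above the rest, and the log2 change was 0.91 against NC82 (limma adjusted p = 0.00093). Nitab4.5_0001675g0070 rose likewise, from 3.7 ± 1.12 to 7.25 ± 0.474 in G27 (limma adjusted p = 0.0022), with 3.61 ± 0.275 in M21. Both were lower in M21 than in G27 (limma adjusted p = 0.0061 and 0.0037). No xyloglucan endotransglucosylase was called in opposite directions in the lines against NC82, 4 were called higher in both and 0 lower in both. How many of all genes were called so in both lines was not counted. Both comparisons share the NC82 libraries, so these counts are a description.

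The remaining members were low or were not called against NC82. Nitab4.5_0001675g0050, whose identifier differs from that of Nitab4.5_0001675g0070 in the gene number alone, stood at 1.86 ± 0.829 in NC82, 1.22 ± 0.15 in M21 and 2.65 ± 0.777 in G27. M21 was lower than G27 (limma adjusted p = 0.044), a call lost without any 1 M21 library or G27 replicate 1 or 3 (0.081 to 0.13). Nitab4.5_0002347g0150 had 1.39, 0.55 and 0.29 in NC82, 0.34, 0.28 and 0.14 in M21, and 1.3, 1.22 and 1.1 in G27, and was lower in M21 than in G27 (limma adjusted p = 0.021). It reached 1 in 0 M21, 3 G27 and 1 NC82 libraries, so it passed the filter mainly through the group where it is high. The call was lost without any 1 M21 or G27 library (limma adjusted p = 0.0503 to 0.071). A further 6 were called in none of the comparisons. The highest of them was Nitab4.5_0003353g0040 at 64.3 ± 12.2 in NC82, 53.5 ± 9.88 in M21 and 68.1 ± 12.1 in G27. Nitab4.5_0000345g0090, between 1.02 and 1.52 in all libraries, also carries a domain of the GPI transamidase component PIG-T. The description names the family 16 active site for 18 of the 31 members, of which 5 rose and 6 fell in M21, against 3 and 3 of the 13 others.

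The cellulose synthases with a zinc finger moved little. Of the 20 genes, 0 rose and 4 fell in M21 against NC82, or 20%, where 24.3% of all genes were called. In G27 against NC82, 1 rose and 0 fell, where 13.9% were called. In M21 against G27, 0 were higher and 2 lower in M21, or 10%, where 11.9% of all genes were called. Without the 3 libraries that stood apart the counts were 1 fall in M21, 1 rise in G27, and 2 genes lower in M21 than in G27. The shares of all genes called were then 19.7%, 11.0% and 8.46%. At an unadjusted p under 0.05, 8, 4 and 6 genes passed in these comparisons, or 40%, 20% and 30%, where 35.9%, 26.3% and 25.4% of all genes did. The 5 highest genes were called in none of the comparisons.

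The abundant zinc finger genes formed a narrow group. Nitab4.5_0023024g0010, the highest, stood at 34.01, 38.08 and 38.16 in NC82, 39.69, 37.14 and 42.32 in M21, and 38.26, 44.6 and 37.8 in G27, and all its groups overlapped. Nitab4.5_0008778g0020 stood at 33.78, 35.45 and 35.16 in NC82, 41.01, 36.59 and 40.75 in M21, and 39.42, 42.49 and 36.05 in G27. Nitab4.5_0002007g0070 stood at 31.46, 31.62 and 31.18 in NC82, 34.6, 30.2 and 34.37 in M21, and 35.86, 34.81 and 32.32 in G27. The NC82 libraries of both genes were close together, and those of the lines spread more widely. Nitab4.5_0009676g0040 stood at 29.52, 31.53 and 30.92 in NC82, 34.33, 31.95 and 34.16 in M21, and 34.58, 37.24 and 31.09 in G27. Nitab4.5_0001344g0020 stood at 28.49, 32.74 and 32.32 in NC82, 32.56, 28.93 and 34.75 in M21, and 32.03, 36.49 and 29.29 in G27. The log2 changes of these 5 genes lay between 0.04 and 0.17 in both lines. Nitab4.5_0006867g0010 was the one that rose in G27, with 17.83, 17.55 and 18.25 in NC82, 17.79, 15.93 and 18.9 in M21, and 25.15, 25.84 and 23.01 in G27. NC82 and M21 overlapped and G27 lay above both, by a log2 difference of 0.44 against NC82 (SE 0.078, limma adjusted p = 0.0030). The log2 difference of M21 from G27 was -0.47 (limma adjusted p = 0.0035). Nitab4.5_0001582g0100 stood at 21.01, 19.97 and 19.72 in NC82, 17.87, 17.01 and 17.43 in M21, and 20.74, 19.87 and 19.2 in G27. M21 lay below NC82 and G27, which overlapped, though M21 was not called against G27 (limma adjusted p = 0.099). The gene fell in M21 against NC82 (log2 change -0.20, limma adjusted p = 0.042). The call was lost without any 1 NC82 or M21 library or G27 replicate 3 (limma adjusted p = 0.055 to 0.11).

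The tested zinc finger genes with a mean under 2, 6 in number, had lower values in M21 than in NC82. This band was set apart after its values were seen and is described with no test. In 5 of the 6 no M21 library reached 1, and they passed the filter through NC82, with 2 or 3 libraries each, and 1 or 2 G27 libraries. The filter treats the genotypes alike, but these 5 genes passed it without an M21 library, so lower values in M21 were partly built in. The band's direction therefore counts as no support. A filter of 6 libraries leaves out those 5, and then 15 zinc finger genes were tested and 0 rose and 2 fell in M21. All 6 had M21 libraries below every NC82 library, where the ranges of 40.3% of all genes did not overlap, in either direction. Their log2 changes ran from -0.57 to -0.32, with a median of -0.40. The 3 genes with a mean from 2 to 10 had changes from -0.17 to 0.13. Those of the 11 with a mean of 10 or more ran from -0.20 to 0.17. Zinc finger genes below the filter did not all follow. Nitab4.5_0000021g0570 overlapped NC82 in M21, and Nitab4.5_0000469g0150 had means of 0.173 in NC82 and 0.167 in M21. In G27 against NC82, 5 of the 6 changes were below 0, with a median of -0.19. The calls within the band were Nitab4.5_0002611g0020, at 1.3, 1.38 and 1.4 in NC82 and 0.83, 0.47 and 0.48 in M21 (limma adjusted p = 0.0052), Nitab4.5_0008526g0020, at 1.04, 1.04 and 1.48 and then 0.59, 0.46 and 0.62 (limma adjusted p = 0.014), and Nitab4.5_0001762g0080, at 1.7, 1.71 and 2.21 and then 1.49, 1.17 and 1.23 (limma adjusted p = 0.048). Each was lost under some alternative. The first was lost without the 3 libraries that stood apart (limma adjusted p = 0.0504), the next without NC82 replicate 3 (0.065), and the last without any 1 of the 9 libraries (0.051 to 0.19). In G27 they stood, in that order, at 0.93, 1.07 and 0.81, at 0.86, 1.02 and 0.75, and at 2.28, 2.53 and 2.49, and Nitab4.5_0001762g0080 was lower in M21 than in G27 (limma adjusted p = 0.0055). Laccases, taken as markers of xylem with secondary walls, are given beside these genes and add no support to the band's direction. Their 48 genes summed to between 26.5 and 35.5 in NC82, 17.9 and 20.7 in M21, and 21.1 and 29.97 in G27, 5 of them were at 0 in all libraries, and of the 12 tested 9 fell and 0 rose in M21, where 11.3% of all genes fell. The fall count was 4 without NC82 replicate 2, NC82 replicate 3 or M21 replicate 3. Calls over all genes in M21 against NC82, 8064 in number, ran from 5952 to 8389 with 1 library left out. In G27 against NC82, 0 of the 12 were called by limma and 3 had an unadjusted p under 0.05, with counts of 1 without the 3 libraries that stood apart and 2 without NC82 replicate 1. The part of xylem cells in these changes was not tested.

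**Figure D4:**
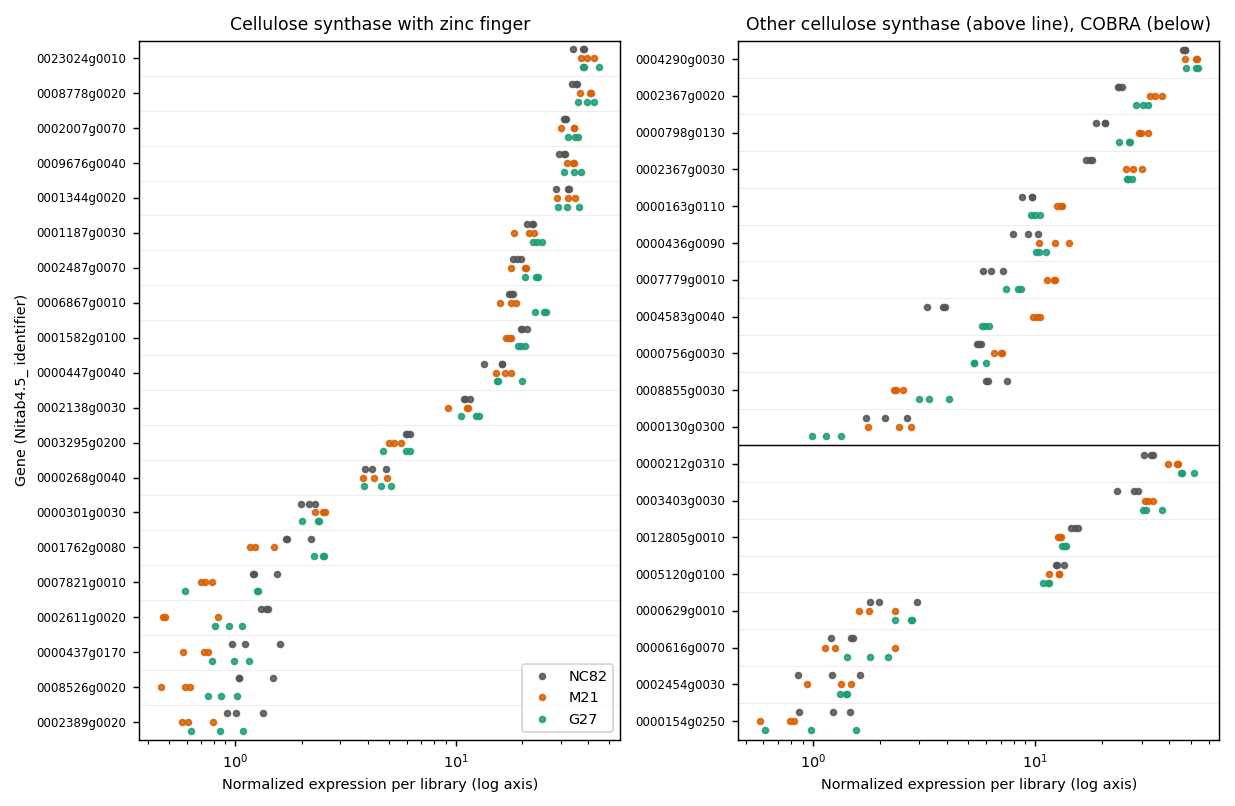
Normalized expression of the 20 cellulose synthase genes with a zinc finger on the left, and of the 11 other cellulose synthase genes and 8 COBRA genes on the right, above and below the line, on log axes with each point a library. On the left the changes among the 11 genes with a mean of 10 or more stay within -0.20 to 0.44 on the log2 scale in both lines, and M21 lies to the left of NC82 for the lowest 6, 5 of which passed the filter without an M21 library. On the right most cellulose synthase genes show M21 to the right of NC82.

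In M21, most cellulose synthase genes without a zinc finger rose. In M21 against NC82, 8 of the 11 rose and 1 fell, where 13.0% of all genes rose and 11.3% fell, and the median log2 change was 0.43. In G27 against NC82, 5 rose and 2 fell, where 7.87% rose and 6.05% fell, and the median was 0.19. In M21 against G27, 5 were higher in M21 and 1 lower, where 5.47% and 6.40% of all genes were. Without the 3 libraries that stood apart, 6 rose and 1 fell in M21 (19.7% of all genes were called). Then 3 rose and 2 fell in G27 (11.0%), and 3 were higher and 0 lower in M21 against G27 (8.46%). Ranges did not overlap for 10 of the 11 genes in M21 against NC82 and for 8 in each of the other comparisons, where 40.3% of all genes did not overlap in the first and 30.6% and 28.6% in the others. Without G27 replicate 3, 3 rose and 1 fell in G27. In M21 against G27, 2 were higher and 0 lower without M21 replicate 1, and 3 and 0 without M21 replicate 2. Calls over all genes in that comparison fell too, from 3941 to 2301 without M21 replicate 1. In G27 against NC82 calls over all genes, 4620 in number, ran from 3322 to 4746 with 1 library left out.

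The largest rise was in Nitab4.5_0004583g0040, with 3.24, 3.94 and 3.83 in NC82, 10.17, 9.78 and 10.52 in M21, and 6.17, 5.73 and 5.91 in G27. The 3 genotypes stood apart, and the M21 mean was 2.77 times and the G27 mean 1.62 times that of NC82. Its log2 change was 1.26 in M21 (SE 0.082, limma adjusted p = 3.4e-06) and 0.57 in G27 (limma adjusted p = 0.00071), and M21 was higher than G27 by 0.69 (limma adjusted p = 0.00062). Nitab4.5_0007779g0010 stood at 7.12, 6.29 and 5.81 in NC82, 12.07, 11.27 and 12.19 in M21, and 8.36, 7.38 and 8.58 in G27, in the same order of genotypes. It rose in M21 by 0.80 (limma adjusted p = 0.00010), and M21 was higher than G27 by 0.50 (limma adjusted p = 0.0049). Its rise of 0.30 in G27 (limma adjusted p = 0.046) was lost in 7 of the 9 fits leaving out 1 library, those without NC82 replicate 2 or 3, any M21 library, G27 replicate 1 or G27 replicate 3 (limma adjusted p = 0.052 to 0.17).

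The more abundant genes of this class follow. Nitab4.5_0002367g0030 had 16.81, 18 and 17.63 in NC82, 25.52, 27.53 and 30.19 in M21, and 25.87, 26 and 27.22 in G27. Both lines lay above NC82 and overlapped each other, with log2 changes of 0.63 and 0.57 (limma adjusted p = 0.00015 and 0.00042). Its neighbour by identifier, Nitab4.5_0002367g0020, stood at 23.56, 23.84 and 24.46 in NC82, 34.57, 32.63 and 36.96 in M21, and 30.42, 28.39 and 32.07 in G27. The log2 values of this pair had a Pearson r of 0.94 over the 9 libraries and of 0.56 with each genotype's mean taken out. Nitab4.5_0000798g0130 stood at 18.76, 20.43 and 20.61 in NC82, 31.96, 29.09 and 29.77 in M21, and 23.79, 26.43 and 26.52 in G27. In both of these genes the 3 genotypes did not overlap, with M21 the highest. M21 was not called against G27 in either (limma adjusted p = 0.12 and 0.065). Against NC82, the limma adjusted p in M21 and G27 were 0.00046 and 0.011 for Nitab4.5_0002367g0020 and 0.00025 and 0.0093 for Nitab4.5_0000798g0130. The G27 call of Nitab4.5_0002367g0020 was lost without G27 replicate 3 (limma adjusted p = 0.051) and without the 3 libraries that stood apart (0.053). Nitab4.5_0000163g0110 stood at 8.7, 9.62 and 9.68 in NC82, 13.02, 12.48 and 13.22 in M21, and 10, 10.43 and 9.56 in G27. It rose in M21 (log2 change 0.43, limma adjusted p = 0.0015), and M21 was higher than G27 (limma adjusted p = 0.012), a call lost without M21 replicate 1 (0.052) and without the 3 libraries that stood apart. The highest gene, Nitab4.5_0004290g0030, stood at 46.09, 46.84 and 46.81 in NC82, 53.19, 47.11 and 52.68 in M21, and 53.48, 52.67 and 47.47 in G27 and was not called.

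Other members of this class were weakly called or went down. Nitab4.5_0000436g0090 stood at 9.17 ± 1.2 in NC82 and 12.3 ± 1.87 in M21 (limma adjusted p = 0.035), and Nitab4.5_0000756g0030 at 5.58 ± 0.135 and 6.86 ± 0.31 (limma adjusted p = 0.034). The first call was lost when NC82 replicate 2, NC82 replicate 3, M21 replicate 1 or M21 replicate 3 was left out (limma adjusted p = 0.081 to 0.13), and the other without any 1 NC82 library or M21 replicate 1 or 3 (0.056 to 0.11). The one that fell in both lines was Nitab4.5_0008855g0030, at 6.13, 6 and 7.42 in NC82, 2.31, 2.55 and 2.37 in M21, and 3.32, 4.09 and 3 in G27. NC82 lay above both lines, and the NC82 mean was 2.70 times that of M21 and 1.88 times that of G27. Its log2 change was -1.14 in M21 (SE 0.11, limma adjusted p = 4.0e-05) and -0.75 in G27 (limma adjusted p = 0.00083). Nitab4.5_0000130g0300 stood at 1.74, 2.1 and 2.64 in NC82, 2.45, 2.76 and 1.76 in M21, and 1.34, 1.14 and 0.99 in G27. It fell in G27 (log2 change -0.54, limma adjusted p = 0.027), and that call did not hold when NC82 replicate 2, NC82 replicate 3, G27 replicate 2 or G27 replicate 3 was left out (0.066 to 0.11). M21 against G27 was also called for 3 genes of this paragraph (limma adjusted p = 0.018, 0.046 and 0.045 in the order that follows). The call was lost for Nitab4.5_0000130g0300 when M21 replicate 1, M21 replicate 2 or G27 replicate 3 was left out (limma adjusted p = 0.066 to 0.070), for Nitab4.5_0000756g0030 in all fits leaving out 1 library but that without G27 replicate 1 (0.054 to 0.14), and for Nitab4.5_0008855g0030 in all but those without NC82 replicate 3 or G27 replicate 3 (0.053 to 0.14).

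Among the 8 COBRA genes, 1 rose and 1 fell in M21, where 24.3% of all genes were called, and 1 rose and 0 fell in G27, where 13.9% were. With median-ratio scaling the G27 count was 1 up and 1 down, where 14.7% of all genes were called. In M21 against G27, 0 were called at an adjusted p under 0.05 by limma and 1 had an unadjusted p under 0.05. Of all genes, 11.9% and 25.4% passed these thresholds. The most abundant, Nitab4.5_0000212g0310, stood at 30.66, 33.01 and 33.82 in NC82, 43.79, 39.59 and 43.24 in M21, and 45.44, 51.52 and 44.88 in G27. Both lines lay above NC82, and it rose by a log2 difference of 0.37 in M21 (SE 0.077, limma adjusted p = 0.0053) and 0.53 in G27 (limma adjusted p = 0.00086). Nitab4.5_0003403g0030 stood at 23.33, 27.85 and 28.9 in NC82, 33.6, 30.96 and 32.16 in M21, and 31.37, 36.84 and 30.48 in G27. Both lines lay above NC82 here too, and it was not called (limma adjusted p = 0.067 and 0.072). Nitab4.5_0012805g0010 stood at 14.51, 15.45 and 15.01 in NC82, 12.65, 12.92 and 12.97 in M21, and 13.53, 13.19 and 13.74 in G27. It fell in M21 (log2 change -0.21, limma adjusted p = 0.035), a call lost without NC82 replicate 2 or 3, any 1 M21 library or G27 replicate 3 (0.0502 to 0.14). Nitab4.5_0005120g0100 stood at 12.42, 12.51 and 13.38 in NC82, 12.7, 11.51 and 12.76 in M21, and 11.44, 11.45 and 10.84 in G27. Nitab4.5_0000629g0010 stood at 1.8, 1.98 and 2.94 in NC82, 2.33, 1.78 and 1.62 in M21, and 2.8, 2.75 and 2.34 in G27. Neither was called, nor were the other 3, whose means over all libraries lay between 0.99 and 1.59.

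**Figure D5:**
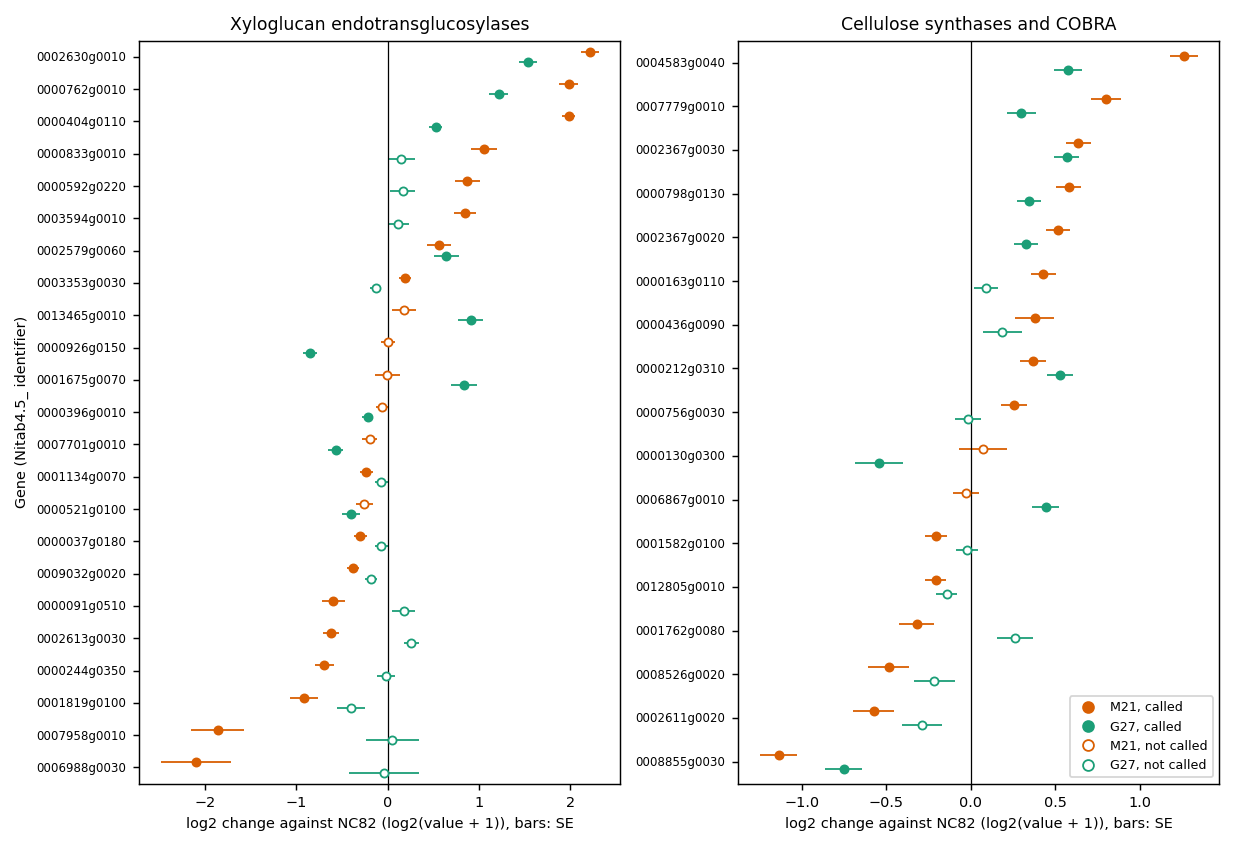
Change in log2(value + 1) against NC82, with SE, of every member called in at least 1 line, with filled points for called and open points for not called. Xyloglucan endotransglucosylases are on the left, where changes in M21 run from -2.09 to 2.21, and cellulose synthases and COBRA genes on the right, where they run from -1.14 to 1.26. Both lines are set against the same NC82 libraries.

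The rest of the pathway was read from lists of domain names. Counts called stand beside the 24.3% (13.0% up, 11.3% down) of all genes called in M21 against NC82, the 13.9% (7.87% and 6.05%) in G27 against NC82 and the 11.9% in M21 against G27. Over all genes these were 8064, 4620 and 3941 calls. With 1 library left out they ran from 5952 to 8389, 3322 to 4746 and 2301 to 4185. Without the 3 libraries that stood apart, 19.7%, 11.0% and 8.46% of all genes were called. Family 9 endoglucanases, the family of the membrane-bound KORRIGAN enzyme that acts in cellulose synthesis, had 0 of 18 genes up and 9 down in M21 against NC82, 1 up and 0 down in G27, and 0 higher and 11 lower in M21 against G27. The count of 11 was 4 without the 3 libraries that stood apart, 5 without any 1 M21 library and 6 without G27 replicate 1 or G27 replicate 2, and the G27 count was 0 without G27 replicate 3. Their median log2 changes were -0.26, 0.00389 and -0.38. Genes of substrate supply, which are sucrose synthases and enzymes that make or use UDP-glucose, had 0 of 33 up and 15 down in M21 and 0 up and 9 down in G27. Their summed level was 571.7 to 659.6 in NC82, 437.2 to 462 in M21 and 430.8 to 503.7 in G27. Expansins, which loosen walls by another route, had 2 of 32 up and 16 down in M21 and 0 up and 6 down in G27. They summed to 434.2 to 480.4 in NC82, 337.4 to 358.4 in M21 and 386.7 to 452 in G27, and their G27 count was 3 without NC82 replicate 2 or NC82 replicate 3 and 2 without G27 replicate 2.

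The lists read for xyloglucan side chains were called less than all genes in M21 and near or below the share of all genes in G27. They are families named by domain, and nearly all their fucosyltransferases are described as protein O-fucosyltransferases. The counts therefore do not stand for side chain building. Exostosin-like enzymes, a family that holds galactosyltransferases of xyloglucan, had 6 of 54 up and 3 down in M21, or 16.7%, and 7 up and 1 down in G27, or 14.8%. Their G27 count was 4 up and 1 down without NC82 replicate 1, G27 replicate 3 or the 3 libraries that stood apart. Galactosyl transferase domain genes, the family of xyloglucan xylosyltransferases, had 0 of 8 called in M21 at an adjusted p under 0.05 by limma, with 1 at an unadjusted p under 0.05, and 1 was lower without M21 replicate 2, G27 replicate 2 or G27 replicate 3. In G27 1 was up, a call lost without any 1 library except M21 replicate 2 and M21 replicate 3. Fucosyltransferases, nearly all described as protein O-fucosyltransferases, had 2 of 61 up and 3 down in M21, or 8.20%, and 3 up and 1 down in G27, or 6.56%. With 1 library left out their M21 count ran from 2 without NC82 replicate 3 to 8 without M21 replicate 2, and was 3 without NC82 replicate 2 or M21 replicate 1. Their G27 count was 7 without M21 replicate 2 and 2 without the 3 libraries that stood apart. PC-esterase domain proteins, which acetylate wall polysaccharides, had 6 of 70 up and 6 down in M21, or 17.1%, and 6 up and 1 down in G27, or 10%, and the M21 count was 3 up and 4 down without M21 replicate 1. Glycoside hydrolases of families 31 and 35, some of which trim xyloglucan side chains, had 6 of 33 up and 7 down in M21, or 39.4%, and 1 up and 3 down in G27. Their rises in M21 were 2 without NC82 replicate 2 and 1 without NC82 replicate 3 or M21 replicate 3, and their falls in G27 were 1 without NC82 replicate 2 or G27 replicate 1.

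Markers of other cells were read beside these counts. The ranges of calls over all genes with 1 library left out, given above, hold for these lists too. Core histones, taken as markers of dividing cells, had 13 of 102 up and 4 down in M21, or 16.7% where 24.3% of all genes were called, and 29 up and 4 down in G27, or 32.4% where 13.9% were. The M21 count was 5 up and 4 down without NC82 replicate 3 and 4 up and 4 down without M21 replicate 3. Their 130 matching genes, of which 10 were at 0 in all libraries, summed to 3883 to 3975 in NC82, 3924 to 4178 in M21 and 4228 to 4273 in G27. Genes with pollen in their description had 11 of 74 up and 23 down in M21, or 45.9%, and 3 up and 10 down in G27, or 17.6%. This list holds expansins, and its G27 count was 8 without NC82 replicate 2, NC82 replicate 3 or G27 replicate 2. Its 179 genes, of which 61 were at 0 throughout, summed to 1967 to 2123 in NC82, 1997 to 2064 in M21 and 1814 to 2020 in G27. The leaf list had 10 of 82 up and 6 down in M21, or 19.5%, and 4 up and 5 down in G27, or 11%, and the M21 count was 5 up and 4 down without M21 replicate 1. The part of a shift in cell types in the changes of members was not tested.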

How the data were processed

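Members and gene lists were chosen with earlier results of these data known. The authors deposited 1 normalized expression signal per gene and library. Per the submitters' processing notes, HISAT2, StringTie and RSEM were used, but in which role, version and setting, and with which genome build and strandedness, the sources do not say. Read counts are unknown, so no counting intervals can be given. Among 2966 genes seen in 1 library, values ran from 0.02 to 0.6 (percentiles 10 and 90), so 1 read is not worth the same in every gene. There were 3 columns of group means, which were not used.

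Genes reaching a value of 1 in 3 or more of 9 libraries were fitted as log2(value + 1) with limma 3.58.1 (empirical Bayes with trend, no block) in R 4.3.3, all libraries together, with Benjamini-Hochberg adjustment over 33188 genes and two-sided tests. The method was tested on simulated data. Genes given with every library's value were, per class, the 5 highest by mean, and in each comparison those called with a log2 change of 1 or more either way and the 3 with the smallest p in each direction. Members called in 2 or more comparisons were also named. Any other gene was chosen after its values were seen. Alternatives were a pseudocount of 0.1, no filter, a filter of 6 libraries, median-ratio scaling, a replicate block, fits of 2 groups, and leaving out libraries. Figures used Python 3.11.15 and matplotlib 3.10.9. No sequences were used here.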

Additional observations from a re-analysis of the deposited data

Results flagged for a closer look

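In 3 of the 70 members, or 4.29%, every library of M21 lay on one side of NC82 and every library of G27 on the other. Of all 33188 genes tested, 535, or 1.61%, did so. Since the members were picked for lying apart in this way, the comparison of M21 with G27 on the same values is a description here. The xyloglucan endotransglucosylase Nitab4.5_0003353g0030 was higher in M21 than in G27 by 0.32 in log2(value + 1). Nitab4.5_0002613g0030, of the same class, differed by -0.88, and the zinc finger cellulose synthase Nitab4.5_0001762g0080 by -0.58. None of the 3 was called against NC82 in G27, at limma adjusted p of 0.22, 0.074 and 0.14.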

How the results depend on the processing

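No call of a gene named by rule changed sign under any alternative run. Of 59 such calls, 59 were kept with a pseudocount of 0.1, 56 with median-ratio scaling and 49 without the 3 libraries that stood apart. The fewest, 48, were kept without M21 replicate 1 and without G27 replicate 3. Among calls of all members, 23 of 32 in M21 against NC82 held under every alternative in which the gene was tested. In G27 against NC82 14 of 19 did, and in M21 against G27 19 of 27. Counts of cellulose synthase calls moved, and those of the other lists that moved are given beside them above. In M21 against NC82 they went from 13 to 8 without those 3 libraries and to 8 to 12 with 1 library left out, 8 being without NC82 replicate 3. In G27 against NC82 they were 8, and 5 to 8 with 1 library left out, 5 being without G27 replicate 3. In M21 against G27 they were 8, then 5 without the 3 libraries and 4 to 7 with 1 library left out, 4 being without M21 replicate 1 and 5 without M21 replicate 2. Calls over all genes moved in these fits too. In M21 against NC82 they were 8064, then 6547 without the 3 libraries and 5952 to 8389 with 1 library left out. In G27 against NC82 they were 4620, then 3663 without the 3 libraries and 3322 to 4746 with 1 library left out. In M21 against G27 they were 3941, then 2808 without the 3 libraries. With 1 library left out they ran there from 2301, without M21 replicate 1, to 4185. The cause was not tested. Whether the replicate numbers pair the samples is not known. Same-numbered libraries deviated together with r from -0.21 to 0.34, and differently numbered ones with r from -0.34 to 0.28. Deviations within groups of 3 libraries are tied to each other, so these values cannot decide it. With the replicate block, xyloglucan endotransglucosylase calls were 16, 9 and 19 in the 3 comparisons, against 17, 10 and 19, and cellulose synthase calls 10, 7 and 6, against 13, 8 and 8. Calls over all genes with the block were 7846, 4443 and 3720. The number of reads behind a value is unknown. With the filter of 6 libraries, zinc finger cellulose synthase calls in M21 against NC82 went from 4 to 2, since 5 of the 20 genes were then not tested.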

Other observations

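Of the 82 members below the filter, 4 reached a value of 1 in some library. The cellulose synthase gene Nitab4.5_0019241g0010 reached 3.23 in M21 replicate 3 and 0.41 in NC82 replicate 3, and was listed at 0 in the other libraries. Nitab4.5_0000021g0570, with a zinc finger, stood at 1.38, 0.92 and 1.12 in G27 and between 0.55 and 0.85 elsewhere. The other 2 were Nitab4.5_0022990g0010, with values up to 1.03, and the xyloglucan endotransglucosylase Nitab4.5_0000329g0220, up to 1.06. No COBRA gene below the filter passed 0.76, and no xyloglucan fucosyltransferase passed 0.4.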
